A study of Rattus norvegicus with 6 samples.

Results

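The miR-290 to miR-295 cluster is a run of small RNA hairpins that are processed from neighbouring positions on 1 chromosome. Listed miRNAs were taken as members when their name was miR-290, miR-291a, miR-291b, miR-292, miR-293, miR-294 or miR-295, with or without an arm suffix, and this rule found 8 of the 842 miRNAs in the deposited table. They were rno-miR-290, rno-miR-291a-5p, rno-miR-291a-3p, rno-miR-291b, rno-miR-292-5p, rno-miR-292-3p, rno-miR-293-5p and rno-miR-295-3p, written below without the rat prefix. The rule reads names only, but the cluster was selected on the read counts of miR-292-5p, miR-293-5p and miR-291a-3p, which were already known to differ widely between these libraries. Their values in injured and sham animals are therefore given as a description. The fit over the whole table is reported for its fold changes and counts, and nothing about the cluster is supported with it.

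The tissue was orbitofrontal cortex, a frontal region that takes part in valuing choices, from adult male Sprague Dawley rats, an outbred stock, and its small RNA was sequenced. All animals had surgeries on days 1, 4 and 7, and the brains were taken on day 42. The 3 injured animals received controlled cortical impact, a piston blow of 2 mm depth at a velocity of 5 m/s, at every surgery, which the labels class as repeated and mild. The 3 sham animals received no impact. The labels call the 3 libraries of a group biological replicates, and the replicate numbers used here only name them. Libraries held 12538288 to 23680840 counted reads, and the neuronal miR-128-3p took 64617 to 106323 CPM, the reads scaled to 1000000 per library, in each of them.

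In mouse, the cluster is transcribed as 1 precursor in the early embryo and in embryonic stem cells, where its miRNAs are among the most abundant. They speed the passage from G1 to S phase by repressing inhibitors of the cell cycle, and the cluster is shut down as cells differentiate. Mouse germ cells also express it. The 3p arms carry the family's AAGUGC core, which is shared with the miR-302 family of pluripotent cells and, moved by a base, with the widely expressed miR-17 family. The miR-302 family was not analysed here.

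Sequences were taken from RefSeq on the rat build GRCr8, where all 8 names were matched. There, 7 hairpins lie on the minus strand of chromosome 1 within 2163 bases, at chr1:74877973-74880135, in 5′ to 3′ order on that strand Mir290, Mir291a, Mir292, Mir291b, Mir293, Mir294 and Mir295-1. These positions belong to GRCr8 and not to rn6, the build named in the submitters' processing notes. A second copy, Mir295-2, lies on the plus strand at chr1:82352152-82352232 and has a hairpin identical to Mir295-1, so reads of miR-295-3p cannot be assigned to either copy. The 8 mature sequences are shown because all but miR-291a-5p hold 1 of 2 motifs near the 5′ end, CUCAAAC or AAGUGC. Capitals mark the seed, bases 2 to 8 from the 5′ end. In miR-292-3p and miR-295-3p the core AAGUGC begins at base 1, so the seed does not hold all of it.
miR-290: uCUCAAACuaugggggca
miR-292-5p: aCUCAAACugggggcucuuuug
miR-293-5p: aCUCAAACugugugacacuuu
miR-291a-5p: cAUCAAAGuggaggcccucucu
miR-291a-3p: aAAGUGCUuccacuuugugugcc
miR-291b: aAAGUGCAuccauuuuguuagu
miR-292-3p: aAGUGCCGccagguuuugagugu
miR-295-3p: aAGUGCUAcuacuuuugggugu

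The seed CUCAAAC was shared by miR-290, miR-292-5p and miR-293-5p, and these were the only 3 of 693 rat mature miRNAs in the RefSeq table, or 0.433%, that held it in their first 8 bases. The core AAGUGC stood in the first 8 bases of miR-291a-3p, miR-291b, miR-292-3p and miR-295-3p and of 6 miRNAs outside the cluster, 1.44% of the 693 in all. miR-292-5p and miR-293-5p, which carried most of the reads, shared their first 10 bases and differed by 6 edits over the whole length. Among all 693, the nearest to miR-292-5p was miR-293-5p and the nearest to miR-293-5p was miR-295-5p, at 5 edits. The closest pair that included a listed member was miR-291a-5p and miR-294, at 3 edits. The sources used here do not say how reads matching more than 1 of these sequences were counted. The hairpin of miR-292 is shown because both of its arms had reads, with the 5p arm and then the 3p arm in capitals.
Mir292: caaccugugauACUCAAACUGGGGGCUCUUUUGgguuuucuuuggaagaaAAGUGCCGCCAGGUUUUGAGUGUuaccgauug

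Reads of the cluster were unevenly spread over the 6 libraries, within both groups. The 8 members summed to 40, 6 and 4 reads in sham replicates 1, 2 and 3 and to 731, 2 and 152 reads in injured replicates 1, 2 and 3. Injured replicate 1, injured replicate 3 and sham replicate 1 together held 923 of the 935 reads, or 98.7%. The levels were 32.8 CPM in injured replicate 1, with a 95% Poisson interval from 30.4 to 35.2, then 6.95 CPM (5.89 to 8.14) in injured replicate 3 and 3.19 CPM (2.28 to 4.34) in sham replicate 1. These 3 intervals did not overlap. The remaining libraries had 0.309 CPM (0.113 to 0.672) in sham replicate 2, 0.169 CPM (0.0460 to 0.432) in sham replicate 3 and 0.116 CPM (0.0140 to 0.419) in injured replicate 2, and could not be told apart within counting error. The reads carried no molecular identifiers, so these intervals and the limits below cover counting error only.

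A sham library thus lay above an injured one, and the groups overlapped. Injured animals averaged 13.3 ± 17.2 CPM and sham animals 1.22 ± 1.71 CPM over the cluster (SD, n = 3 each), with each SD larger than its mean. Counted reads in sham replicates 1, 2 and 3 were 12538288, 19446526 and 23680840, beside 40, 6 and 4 cluster reads. In injured replicates 1, 2 and 3 they were 22311086, 17244114 and 21884270, beside 731, 2 and 152 cluster reads. Sham replicate 1 was the shallowest library and sham replicate 3 the deepest, and the part that depth plays was not tested. Even in injured replicate 1 the cluster made up 0.00328% of counted reads. In tissue of mixed cells, fewer cells of a type and less RNA per cell cannot be told apart.

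**Figure D1:**
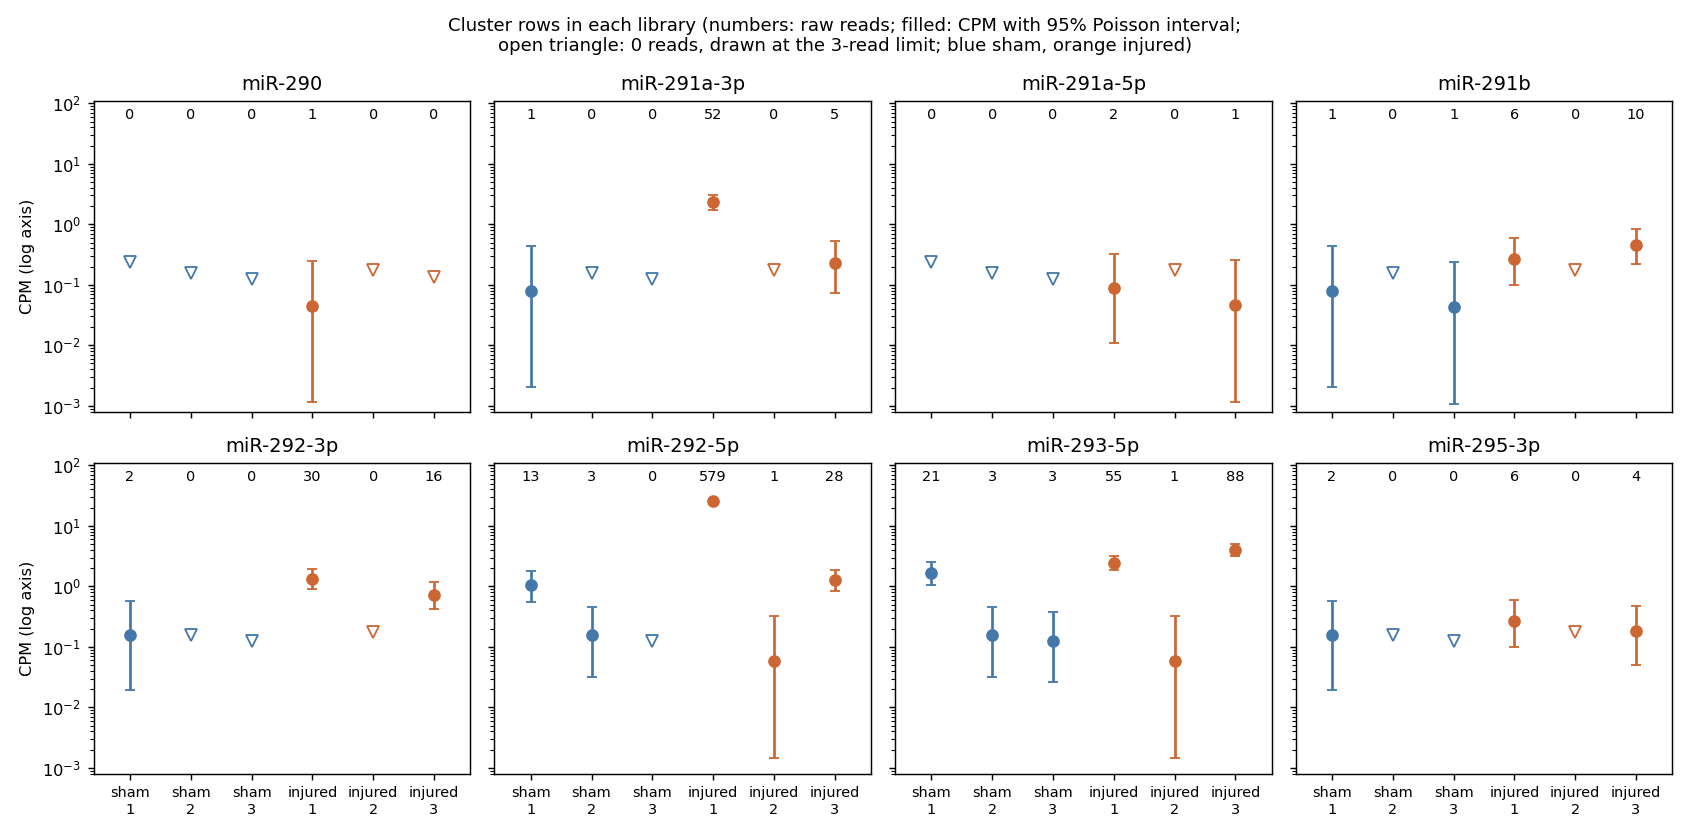
Level of each of the 8 cluster miRNAs in each library, in CPM on a log axis, with raw reads printed above and 95% Poisson intervals as bars; open triangles mark 0 reads at the limit that 3 reads would give. miR-292-5p stands at 26.0 CPM in injured replicate 1, while sham replicates 2 and 3 and injured replicate 2 hold at most 3 reads of any member.

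The 5p arms with the CUCAAAC seed gave most of the reads. In sham replicates 1, 2 and 3, miR-292-5p had 13, 3 and 0 reads, and in injured replicates 1, 2 and 3 it had 579, 1 and 28. Its level was 26.0 CPM in injured replicate 1, with a 95% Poisson interval from 23.9 to 28.2, and 1.28 CPM (0.850 to 1.85) in injured replicate 3. Sham replicate 1, at 1.04 CPM (0.552 to 1.77), could not be told apart from injured replicate 3 within counting error. Injured replicate 1 alone was high, and injured replicate 2, with 1 read, lay below sham replicate 1. For the 0 in sham replicate 3, the 95% Poisson interval reaches 0.156 CPM, and 3 reads would give 0.127 CPM there.

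miR-293-5p was the only member with reads in all 6 libraries. Sham replicates 1, 2 and 3 held 21, 3 and 3 of them, and injured replicates 1, 2 and 3 held 55, 1 and 88. Its level was highest in injured replicate 3, at 4.02 CPM (3.23 to 4.95), followed by injured replicate 1 at 2.47 CPM (1.86 to 3.21) and sham replicate 1 at 1.67 CPM (1.04 to 2.56). The intervals of the first 2 did not overlap, and those of injured replicate 1 and sham replicate 1 did. The other members of the 5p arm were close to the detection limit. miR-290 had 1 read, in injured replicate 1, and miR-291a-5p had 2 reads in injured replicate 1 and 1 in injured replicate 3.

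The 3p arms with the AAGUGC core, the arms that act in the cell cycle of mouse embryonic stem cells, were found at lower counts in the same libraries. miR-291a-3p had 1, 0 and 0 reads in sham replicates 1, 2 and 3, against 52, 0 and 5 in injured ones. miR-292-3p had 2, 0 and 0 reads in sham replicates 1, 2 and 3, against 30, 0 and 16 in injured ones. Both had their highest value in injured replicate 1, at 2.33 CPM (1.74 to 3.06) and 1.34 CPM (0.907 to 1.92). For miR-292-3p the interval of injured replicate 3, at 0.731 CPM (0.418 to 1.19), overlapped that of injured replicate 1. Which of these libraries was higher was thus not resolved for miR-292-3p. Both members had no read in sham replicates 2 and 3 and injured replicate 2, where 3 reads would give 0.127 to 0.174 CPM.

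miR-291b had 1, 0 and 1 reads in sham replicates 1, 2 and 3, against 6, 0 and 10 in injured ones. miR-295-3p had 2, 0 and 0 reads in sham replicates 1, 2 and 3, against 6, 0 and 4 in injured ones. For these 2 members the intervals of injured replicates 1 and 3 overlapped, so which was higher was not resolved at this depth. The groups overlapped for 8 of 8 members, because injured replicate 2 held at most 1 read of any of them. Over the 534 miRNAs tested, only 7.87% had groups that did not overlap. Overlap was thus the usual case, and nothing is read from the count of members.

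The make-up of the cluster reads differed between the libraries that held most of them. miR-292-5p took 79.2% of the 731 cluster reads of injured replicate 1, with a 95% Clopper-Pearson interval from 76.1% to 82.1%. It took 18.4% (12.6% to 25.5%) of the 152 reads of injured replicate 3 and 32.5% (18.6% to 49.1%) of the 40 reads of sham replicate 1. miR-293-5p took 7.52% (5.72% to 9.68%), 57.9% (49.6% to 65.8%) and 52.5% (36.1% to 68.5%) in the same order. Injured replicate 1 was thus led by miR-292-5p, while miR-293-5p led in injured replicate 3 and had the higher share in sham replicate 1, where the intervals of these shares overlapped.

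**Figure D2:**
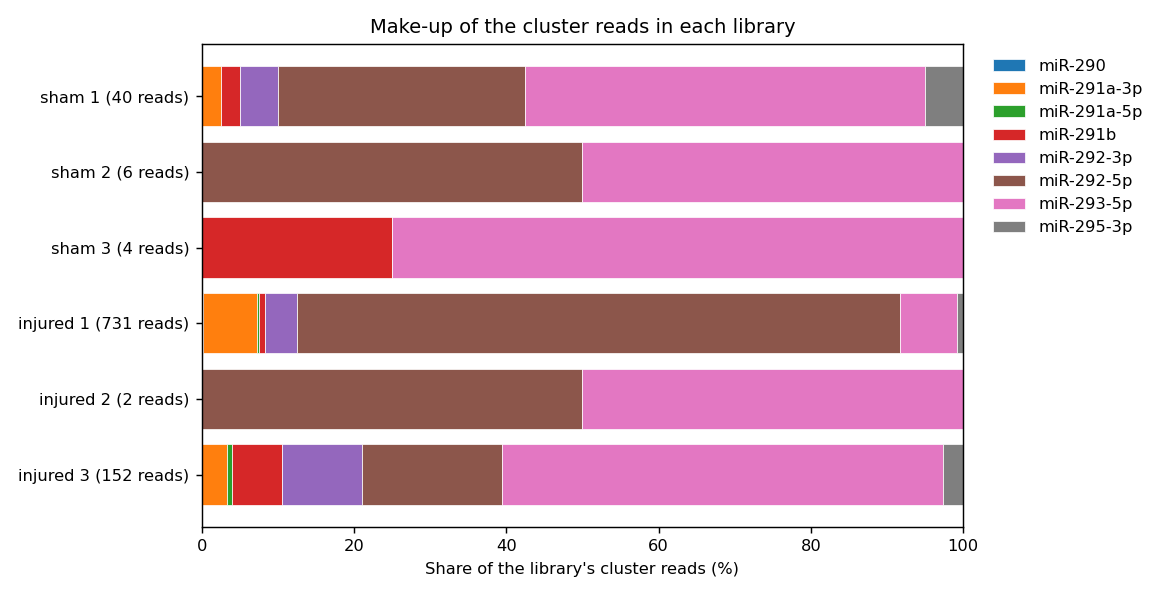
Share of each of the 8 cluster miRNAs among the cluster reads of a library, in percent, with the number of cluster reads beside each bar. miR-292-5p fills 79.2% of the bar of injured replicate 1 and 18.4% of that of injured replicate 3; the bars of sham replicates 2 and 3 and injured replicate 2 rest on 6, 4 and 2 reads.

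The members did not keep 1 ratio between the injured libraries. From injured replicate 3 to injured replicate 1, the summed level was 4.72 times higher, with a 95% exact interval from 3.96 to 5.66. miR-292-5p was 20.3 times higher (13.9 to 30.8) and miR-291a-3p 10.2 times higher (4.10 to 32.7). For miR-293-5p the ratio was 0.613 (0.430 to 0.868), below 1. The ratios of miR-292-3p, at 1.84 (0.971 to 3.61), of miR-291b, at 0.589 (0.176 to 1.79), and of miR-295-3p, at 1.47 (0.349 to 7.09), had intervals that included 1. Between injured replicate 3 and sham replicate 1, miR-293-5p was 2.40 times higher in the injured library (1.48 to 4.07), and the ratio of miR-292-5p was 1.23 (0.619 to 2.60).

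Among reads of miR-292-5p and miR-293-5p together, miR-292-5p made up 91.3% (88.9% to 93.4%) of 634 in injured replicate 1. The same share was 24.1% (16.7% to 33.0%) of 116 in injured replicate 3 and 38.2% (22.2% to 56.4%) of 34 in sham replicate 1. The intervals of injured replicate 3 and sham replicate 1 overlapped each other, and neither reached that of injured replicate 1. On GRCr8, Mir291b lies between the hairpins of these miRNAs, which share their first 10 bases, and the part that counting of similar reads plays in their ratio was not tested.

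The balance between the arms of miR-292 differed as well. The 5p arm gave 579 reads and the 3p arm 30 in injured replicate 1, so that the 5p share was 95.1% (93.04% to 96.7%). In injured replicate 3 the arms gave 28 and 16 reads, a 5p share of 63.6% (47.8% to 77.6%), and these intervals did not overlap. Sham replicate 1, with 13 and 2 reads, had 86.7% (59.5% to 98.3%), which overlapped both. In miR-291a the 3p arm led instead, with 52 reads against 2 in injured replicate 1, a 5p share of 3.70% (0.452% to 12.7%), and with 5 against 1 in injured replicate 3.

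**Figure D3:**
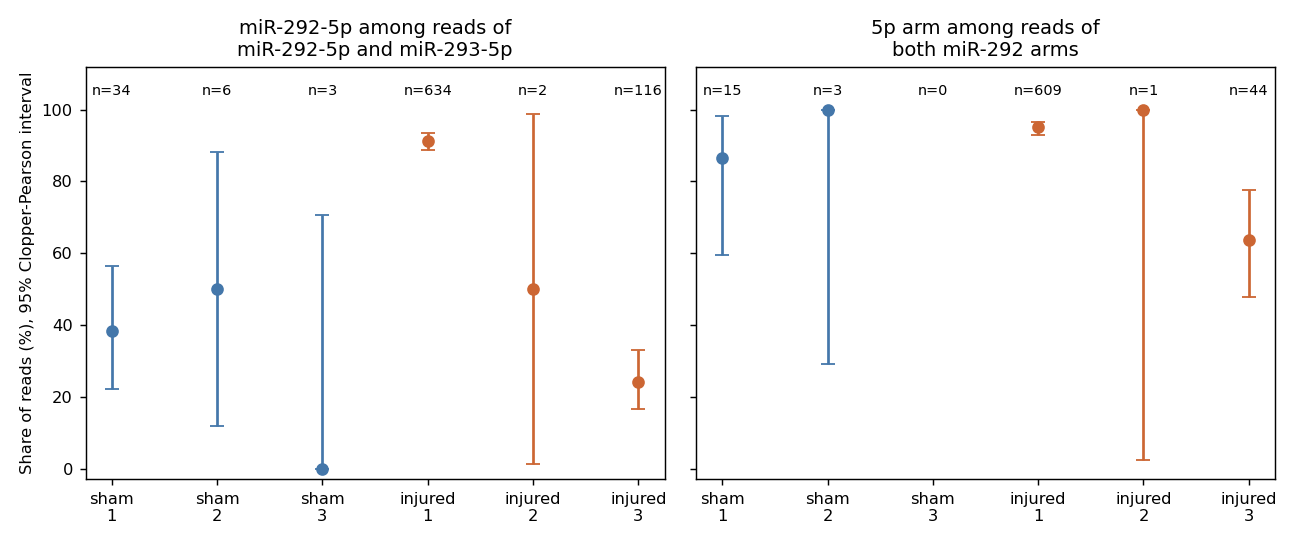
Left, share of miR-292-5p among reads of miR-292-5p and miR-293-5p, and right, share of the 5p arm among reads of both miR-292 arms, in percent for each library, with 95% Clopper-Pearson intervals and the number of reads above. Injured replicate 1 lies at 91.3% on the left and 95.1% on the right, and injured replicate 3 at 24.1% and 63.6%.

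Summed by arm, the 5p members gave 637 reads and the 3p members, miR-291b included, 94 reads in injured replicate 1, a 5p share of 87.1% (84.5% to 89.5%). In injured replicate 3 the 5p share was 77.0% (69.5% to 83.4%) of 152 reads, and in sham replicate 1 it was 85.0% (70.2% to 94.3%) of 40. The intervals of the injured libraries did not overlap each other, and that of sham replicate 1 overlapped both.

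The comparison of injured with sham animals asked which miRNAs differ in this region weeks after repeated mild injury. Only miR-292-5p and miR-293-5p had enough reads in 3 libraries to pass the filter on low counts, so the other 6 members did not enter the test, and both that passed did so through the libraries where they were high. With edgeR's quasi-likelihood test, 0 of the 534 miRNAs tested, 0%, passed an adjusted p of 0.05, so 0 of these 2 members did. At an unadjusted p under 0.05, 0.187% of the miRNAs tested were higher and 2.06% lower in injured animals, and DESeq2 called 0. The 1 that was higher was the member miR-292-5p, whose values led to the choice of the cluster, so nothing is read from it. Groups that do not overlap were found for 42 of the 534, or 7.87%, and for 0 of the 2 members.

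For miR-292-5p, group means were 0.397 ± 0.559 CPM for sham and 9.10 ± 14.6 CPM for injured animals (SD, n = 3 each), and the fitted log2 fold change was 4.80 ± 1.99 (SE). This value rested on injured replicate 1, without which it was 1.01 ± 1.47. Without sham replicate 1 it was 6.96 ± 2.66. For miR-293-5p, means were 0.652 ± 0.886 CPM for sham and 2.18 ± 2.00 CPM for injured animals, with a fitted log2 fold change of 1.92 ± 1.27. It was 1.79 ± 1.46 without injured replicate 1, 1.23 ± 1.44 without injured replicate 3 and 3.97 ± 1.40 without sham replicate 1. The spread between animals of 1 group was thus of the size of the difference for both members.

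How far a miRNA rested on 1 library was measured as the share of its CPM, summed over the libraries, that came from the highest one. Equal levels in 6 libraries would give the lowest value, and the median was 22.9% over the 652 miRNAs with at least 15 reads, with a 90th percentile of 34.8%. miR-292-5p had 91.1% and miR-291a-3p 88.3%, ranks 2 and 3 of the 652. miR-292-3p had 60.2%, rank 14, miR-291b 53.9%, rank 20, and miR-293-5p 47.3%, rank 28. By value, the highest library was injured replicate 1 for miR-292-5p, miR-291a-3p and miR-292-3p and injured replicate 3 for the other 2. For miR-292-3p and miR-291b the Poisson intervals of injured replicates 1 and 3 overlapped. More than 50% in 1 library was found for 4 of the 5 members with at least 15 reads and for 3.68% of all 652. The members were chosen with this unevenness known, so the count describes them and nothing is read from it. Other miRNAs were uneven in other libraries, such as the epithelial miR-200a-3p, named after its values were seen. It had 1595, 19.1 and 119.2 CPM in sham and 2.02, 750.6 and 66.2 CPM in injured replicates 1, 2 and 3, with 62.5% in sham replicate 1, and was lowest where the cluster was highest.

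**Figure D4:**
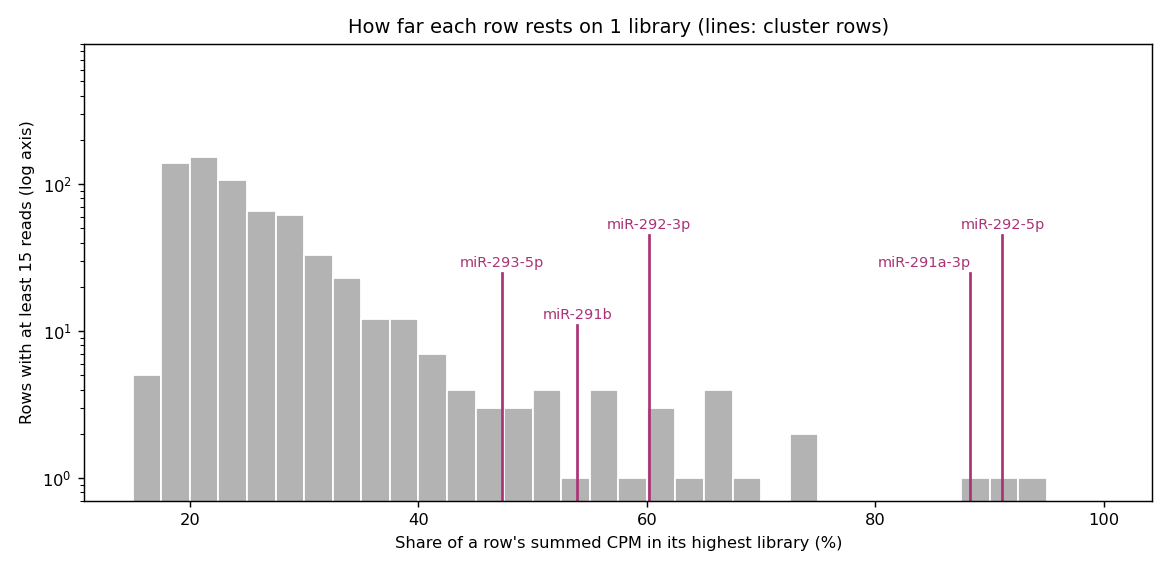
Histogram of the 652 miRNAs with at least 15 reads by the share of their summed CPM that came from their highest library, in percent, with the count on a log axis; lines mark the 5 cluster members among them. Most miRNAs lie near the median of 22.9%, and miR-292-5p and miR-291a-3p lie at 91.1% and 88.3%.

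The other miRNAs among the 5 most uneven were a predicted one and a pair from the germ cell list. novel_119, a predicted miRNA, had 31 of its 33 reads in sham replicate 2. miR-463-3p and miR-881-3p, which belong to a cluster on the X chromosome expressed in rodent testis, had 21 and 33 reads in injured replicate 1. In sham replicates 1, 2 and 3 they had 0, 1 and 5 and 0, 2 and 7 reads, and in injured replicates 2 and 3 they had 1 and 0 and 2 and 0 reads. They shared the peak in injured replicate 1 with the miR-290 to miR-295 cluster but were at 0 in injured replicate 3 and sham replicate 1, where the cluster was next highest.

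Of 22 listed miRNAs of this germ cell group, 12 were highest in injured replicate 1, or 54.5%, against 98 of all 842, or 11.6%. Only 4 of the 22 passed the filter on low counts, so the highest library of the rest can turn on few reads. The 2 shares were not matched for read counts, and nothing is read from them. The summed level of the 22 was 45.6 to 61.4 CPM over sham and 47.5 to 61.8 CPM over injured libraries, most of it from miR-879-5p, at 41.8 to 60.0 CPM. miR-741-3p had 0.558, 0.874 and 2.07 CPM in sham and 3.36, 0.986 and 0.228 CPM in injured replicates 1, 2 and 3. Among 7 liver miRNAs, miR-122-5p was lowest in injured replicate 1, at 0.807 CPM against 10.4 to 24.9 CPM in the other 5 libraries. The list as a whole was not, with a sum of 856.5 CPM there and 567.5 to 973.8 CPM in the others, since miR-192-5p had 759.8 CPM and miR-194-5p 94.5 CPM in that library. The part of RNA from other cells or samples in the cluster's reads was not tested.

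Of the 6 miRNAs outside the cluster with the AAGUGC core, 4 had at least 20.3 CPM in every library, and their levels are set beside the cluster's. By sequence, miR-105 has the seed of miR-291a-3p, and the other 5, of the miR-17 family, hold the core 1 base further on than miR-291a-3p does, as in miR-93-5p.
miR-105: cAAGUGCUcagaugucuguggu
miR-93-5p: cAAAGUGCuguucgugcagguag

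miR-93-5p had 178.3, 100.3 and 226.2 CPM in sham and 164.4, 102.0 and 170.3 CPM in injured replicates 1, 2 and 3, 2.26 times from the lowest to the highest library. The same ratio was 1.84 for miR-20a-5p, 2.69 for miR-17-5p and 2.46 for miR-106b-5p. Between injured replicates 1 and 2 the summed level of the cluster members differed 282.5 times, with a 95% exact interval from 77.9 to 2337, since injured replicate 2 had only 2 reads. miR-105 and miR-20b-5p had 0 to 5 reads in every library, with 42.6% and 55.3% of their summed CPM in the highest one, so too few to call them even or uneven.

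**Figure D5:**
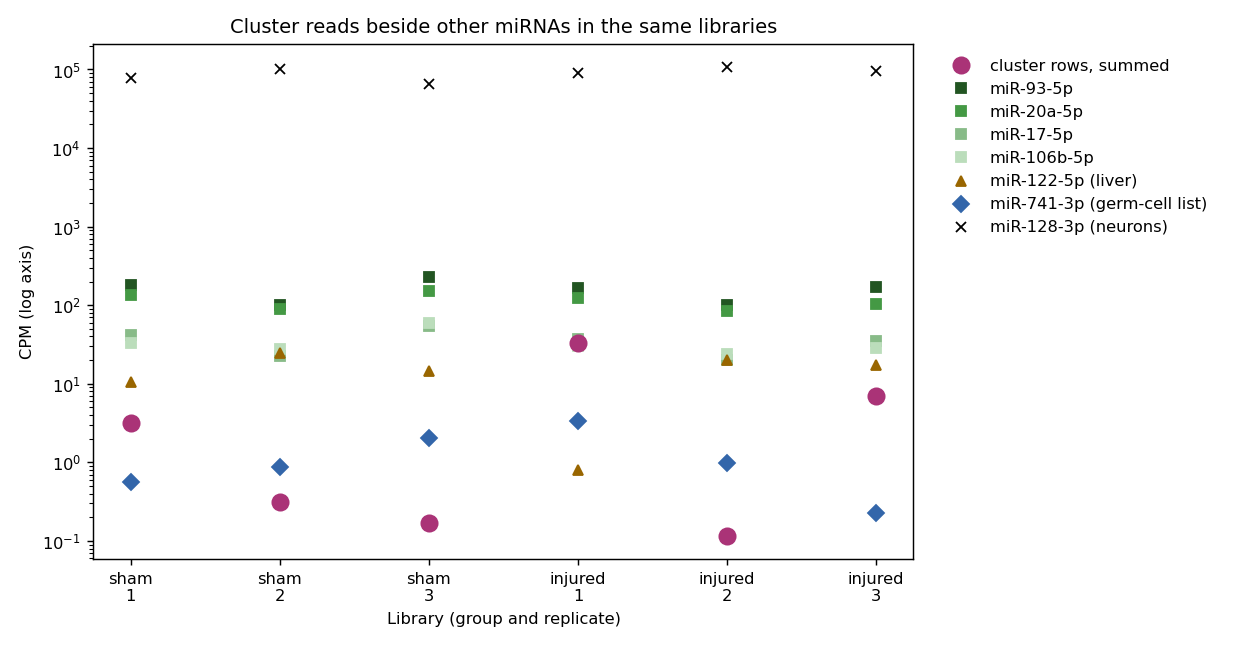
Summed level of the 8 cluster miRNAs in each library, in CPM on a log axis, beside 4 miRNAs of the miR-17 family that hold the AAGUGC core, miR-122-5p, miR-741-3p and miR-128-3p. The cluster moves between 0.116 and 32.8 CPM, while miR-93-5p stays between 100.3 and 226.2 CPM.

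The pattern over the libraries was compared by Pearson correlation of log2 CPM, a description over 6 points that share their libraries. miR-292-5p and miR-293-5p correlated at 0.81 with each other. The 3 tested miRNAs most like miR-292-5p were miR-540-5p at 0.96, miR-300-3p at 0.92 and miR-218a-2-3p at 0.91. Those most like miR-293-5p were miR-1193-3p at 0.97, miR-222-5p at 0.92 and miR-339-5p at 0.90. These were picked as the highest among all miRNAs tested, so high values follow in part from the picking, and nothing is read from them. All 6 varied within a narrow range, from 1.29 times between the lowest and highest library for miR-300-3p to 1.85 times for miR-222-5p. After TMM scaling, miR-540-5p had 5.7, 5.0 and 5.1 CPM in sham replicates 1, 2 and 3, against 7.7, 4.5 and 5.6 in injured ones. The likeness is thus in shape over the libraries and not in size.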

How the data were processed

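Libraries were built from total RNA by a small RNA kit that ligates adaptors, followed by gel selection of the product, per the labels' protocols. Alignment used Bowtie with genome rn6, according to the submitters' processing notes, and the counter, the miRNA annotation and any read filter are not stated. The authors deposited a single table of raw read counts and TPM values for every library, per the file headers. Deposited TPM values equalled counts over the column total to within 4.66e-10, with no length term, so CPM here is the same quantity and TPM was not tested.

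Counts were fitted over the whole table with edgeR 4.0.16 in R 4.3.3 (quasi-likelihood test, TMM, filterByExpr with a minimum count of 10 and a minimum total of 15, Benjamini-Hochberg adjustment); the SE was the absolute log2 fold change over the square root of F. The procedure was tested on simulated data. Likeness used TMM-scaled log2 CPM with a prior count of 2. Ratios between libraries have exact conditional 95% intervals. DESeq2 1.42.0 and other settings were alternatives.

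The members, the lists and the miRNAs named were chosen with earlier results of these data known. Named miRNAs were all members, the 3 most like each tested member and miRNAs with the AAGUGC core in their first 8 bases. Others were the 3 most abundant of each list and the 5 most uneven. Not all of the list miRNAs are printed. The labels name no batch.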

Additional observations from a re-analysis of the deposited data

How the results depend on the processing

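The count of miRNAs called stayed at 0 under all 13 alternatives: RLE, library totals, upper-quartile factors, no filter, a mean count of at least 20, DESeq2, robust dispersion and 6 fits without 1 library. The log2 fold change of miR-292-5p was 4.59 to 4.81 under the 7 alternatives that kept all libraries and 1.01 to 6.96 without 1 library. That of miR-293-5p was 1.79 to 2.07 and 1.23 to 3.97. Adjusted p-values of these 2 members ranged from 0.663 to 0.999 over all fits. The value of miR-292-5p moved most without injured replicate 1, to 1.01, and without sham replicate 1, to 6.96, where that of miR-293-5p was 3.97; fewer samples entered these fits. Where a group is left with 2 libraries, the spread is pooled over groups. The share in the highest library moved by less than its counting interval with raw reads or TMM-scaled CPM for 8 of 8 members. With no filter, the 6 untested members had positive log2 fold changes from 1.85 for miR-290 to 5.23 for miR-291a-3p, fits that rest on 1 to 58 reads. Injured replicate 2 held no read of these members, and miR-291a-3p was among those whose counts led to the choice of the cluster. Nothing is read from these signs, as the share of positive values over all miRNAs in that fit is not given. No paired analysis was made because the labels name no pairing between sham and injured animals. Depth limits what can be said of miR-290, miR-291a-5p and miR-295-3p, which had 1, 3 and 12 reads in all.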

Other observations

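Of the lists compared with the cluster, the widest summed ratio between the highest and the lowest library was 4.57, in the Sfmbt2 list; the miR-200 family was not among these lists, and its member miR-200a-3p differed 790.8 times. Of the 5 miRNAs listed from the Sfmbt2 cluster, expressed in the mouse placenta, 3 were tested, with 0 called and a median log2 fold change of -0.97, against -0.03 over all 534 tested. Their summed level was 2.83 to 3.55 CPM in sham and 0.777 to 2.47 CPM in injured animals, with the lowest value in injured replicate 3. The sum was 2.47 CPM in injured replicate 1, where the miR-290 to miR-295 cluster was highest. In injured replicate 2, where that cluster was lowest, the sum was 2.44 CPM. Of the 3 miRNAs of red blood cells, 0 were called, with a median of -0.82. Medians were -0.08 for the germ cell list (4 tested), -0.09 for liver (4) and -0.47 for pancreas and islet (3). They were 0.05 for heart (1), -0.03 for skin and epithelia (5), -0.13 for the miR-17 list (8) and -0.02 for neurons (12). In each of these lists edgeR called 0. The miR-17 list was drawn by miRNA number and included arms without the AAGUGC core, such as miR-106b-3p.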
